A study of Mus musculus with 12 samples.

Results

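Rab genes encode the largest family of small GTPases of the Ras superfamily, and the mouse genes named Rab followed by a number were followed here in the RNA of peritoneal macrophages, the phagocytes of the abdominal cavity. A gene was a member when its symbol was Rab, a number and at most a letter and a further digit, and when it had a value of at least 1 in 3 or more of the 12 libraries. Of 59 such symbols in the table, 56 met this, among 20419 genes that passed the same filter. Rab9b was listed at 0 in all 12 libraries, Rab3c reached 1 in 1 library and Rab17 in 2. Just inside the limit, Rab33a, Rab39b and Rab3b reached 1 in 5 libraries, Rab25 and Rab40b in 6 and Rab26 in 8. In all, 46 members reached 1 in every library and 10 in fewer.

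A Rab protein in its GTP-bound form sits on one kind of membrane, such as the early endosome, the Golgi or a secretory granule, and recruits the effectors that move, tether and fuse vesicles there. Exchange factors, many with DENN or VPS9 domains, load it with GTP, GTPase-activating proteins with TBC domains switch it off, and GDI proteins carry the prenylated, GDP-bound form through the cytosol. In macrophages these proteins order the maturation of phagosomes, the traffic of Toll-like receptors and the release of cytokines and enzymes.

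All mice were C57BL/6 at postnatal week 10, and every library carries the Lyz2Cre label. Lyz2Cre places Cre recombinase under the lysozyme 2 gene and so acts in monocytes, macrophages and neutrophils. Each of 4 groups held 3 libraries: Lyz2Cre-BHLHE40-Fl with lipopolysaccharide (LPS), Lyz2Cre-BHLHE40-Fl control, Lyz2Cre with LPS and Lyz2Cre control. The series asks what the transcription factor BHLHE40 does in the inflammatory response, Fl is the usual shorthand for a floxed allele, and LPS is the bacterial lipid that TLR4 senses. Neither the dose nor the duration of LPS is given in the sources used here. The labels do not say whether replicates were separate animals or cultures, so the p-values speak only of the spread among these samples. In such bulk RNA, fewer cells of a type and less RNA per cell cannot be told apart.

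Values are normalised read counts, whole reads divided by 1 factor per library as deposited. Libraries held 20489417 to 29354869 reads assigned to genes, and 1 read was worth 0.725 to 1.56 units. Mitochondrial genes took 0.486% to 1.92% of the reads, and within Lyz2Cre-BHLHE40-Fl with LPS replicate 1 had 0.756% against 1.92% and 1.89% in replicates 2 and 3. In Lyz2Cre with LPS the share was 0.486% to 0.600%. Bhlhe40 measured 1956, 2415 and 2327 in libraries labelled Lyz2Cre-BHLHE40-Fl with LPS and 8046, 7617 and 8016 in their controls, against 2544, 2212 and 2644 in Lyz2Cre with LPS and 4886, 4737 and 5306 in Lyz2Cre controls. It was thus higher, not lower, in controls labelled Lyz2Cre-BHLHE40-Fl (log2 difference 0.67, SE 0.08, adjusted p = 6.32e-06, limma with Benjamini-Hochberg adjustment over all 20419 genes). With LPS the log2 difference was -0.15 (adjusted p = 0.201). Counts over a whole gene do not reveal whether an exon was lost, so every genotype direction below is that of libraries so labelled. Lyz2 averaged 769 ± 67.9 in Lyz2Cre-BHLHE40-Fl with LPS, 170.2 ± 31.5 in its controls, 969.9 ± 56.2 in Lyz2Cre with LPS and 766 ± 69.8 in Lyz2Cre controls (SD, n = 3 each). The macrophage markers Adgre1 and Cd68 were present in all 4 groups. Exons of 15 of the 56 members overlap a gene on the other strand, and without a stated strand setting reads of such pairs cannot be told apart.

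Levels were first set side by side per kilobase of annotated exon. Rab7b, a late endosomal Rab that in macrophages steers TLR4 and TLR9 to lysosomes, was among the highest of the family at rest and not after LPS. It ranked 33 of 56 in Lyz2Cre-BHLHE40-Fl with LPS at 56.9 per kilobase and 1 in Lyz2Cre-BHLHE40-Fl controls at 2779. It ranked 27 in Lyz2Cre with LPS at 189.1 per kilobase and 2 in Lyz2Cre controls at 2366. Rab32, which serves lysosome-related organelles, ran the other way, with rank 2 in Lyz2Cre-BHLHE40-Fl with LPS against 16 in its controls, and rank 1 in Lyz2Cre with LPS against 7 in its controls. Rab5c, one of the 3 Rab5 proteins of the early endosome, stood at rank 1 or 2 in all 4 groups and Rab8b, a Rab of post-Golgi carriers, at rank 3 in all 4. By the highest group mean, 27 members reached at least 1000 normalised counts, 10 lay between 100 and 1000, 13 between 10 and 100 and 6 below 10.

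The response to LPS was measured within each genotype label. Under Lyz2Cre-BHLHE40-Fl, 25 members rose, 12 fell and 19 were not called at an adjusted p under 0.05, where 50.5% of all tested genes were called, 24.9% higher and 25.6% lower. Under Lyz2Cre, 23 rose, 18 fell and 15 were not called, where 48.9% of all tested genes were called, 25.0% higher and 23.9% lower. Changes of at least 2-fold were called in 9 higher and 10 lower members under Lyz2Cre-BHLHE40-Fl (27.5% of all genes) and in 10 and 11 under Lyz2Cre (26.2%). The groups did not overlap in 38 members under Lyz2Cre-BHLHE40-Fl and 43 under Lyz2Cre, against 55.6% and 54.5% of all genes. The median log2 change of the members was 0.30 under Lyz2Cre-BHLHE40-Fl and 0.23 under Lyz2Cre, beside -0.05 and 0 for all genes. Of 7 macrophage markers, 5 rose and 1 fell under each label, and their part in the Rab changes was not tested. The Rab counts depend on the scaling. With equal library totals, which moved the median of all genes by -0.51 and -0.58, 10 members rose and 28 fell under Lyz2Cre-BHLHE40-Fl, and 10 rose and 30 fell under Lyz2Cre. Of all 20419 genes, 2619 then rose and 9556 fell under Lyz2Cre-BHLHE40-Fl, and 2395 and 9498 under Lyz2Cre. The counts by role below stand beside these and the shares above. With quantile normalization the counts were 15 and 17 under Lyz2Cre-BHLHE40-Fl and 16 and 22 under Lyz2Cre. Relative to the median of all genes the members' median stayed higher with equal totals, by 0.24 under Lyz2Cre-BHLHE40-Fl and 0.13 under Lyz2Cre, and with quantile normalization by 0.21 under Lyz2Cre-BHLHE40-Fl but by -0.0066 under Lyz2Cre.

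The summed level of all 56 genes shows the same dependence. The sum ran from 118986 to 119454 in Lyz2Cre-BHLHE40-Fl with LPS and from 86424 to 90591 in its controls. In Lyz2Cre it ran from 135643 to 142254 with LPS and from 92601 to 95136 in controls. As a share of all counts, the family took 0.380% to 0.391% in Lyz2Cre-BHLHE40-Fl with LPS against 0.433% to 0.445% in its controls, and 0.369% to 0.375% in Lyz2Cre with LPS against 0.410% to 0.418% in its controls. The sum in deposited units was thus higher with LPS in every library, and the share of all counts lower.

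The direction of the LPS change was largely common to both genotype labels. In 22 members the rise was called under both labels (19.1% of all genes were), in 11 the fall (17.6%), and in 0 were opposite changes called (1.37%). The 2 LPS contrasts use separate libraries. The 11 that fell under both were Rab1b, Rab3a, Rab3d, Rab4a, Rab6b, Rab7b, Rab15, Rab27a, Rab31, Rab40c and Rab42. Under Lyz2Cre-BHLHE40-Fl the Rab42 call was lost with edgeR (adjusted p = 0.0527), with DESeq2 (adjusted p = 0.0879) and without any 1 of its 6 libraries other than control replicate 1 (adjusted p from 0.0715 to 0.131). The Rab1b call was lost there without LPS replicate 2 or control replicate 2 or 3 (adjusted p from 0.091 to 0.099), and under Lyz2Cre without LPS replicate 1 (adjusted p = 0.0718). Among the rises, that of Rab2b under Lyz2Cre-BHLHE40-Fl was lost without LPS replicate 1 or 2 or control replicate 2 or 3 (adjusted p from 0.0708 to 0.122). With equal totals the rises of Rab1a, Rab2a, Rab2b, Rab6a, Rab8b, Rab11a, Rab18, Rab24, Rab28, Rab29, Rab33b and Rab35 were lost under both labels. That of Rab10 was then lost under Lyz2Cre. Quantile normalization also lost several rises, among them that of Rab5c under Lyz2Cre. The other members were called under 1 label only or under neither, and differences of the LPS change between the labels are tested below as an interaction.

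**Figure D1:**
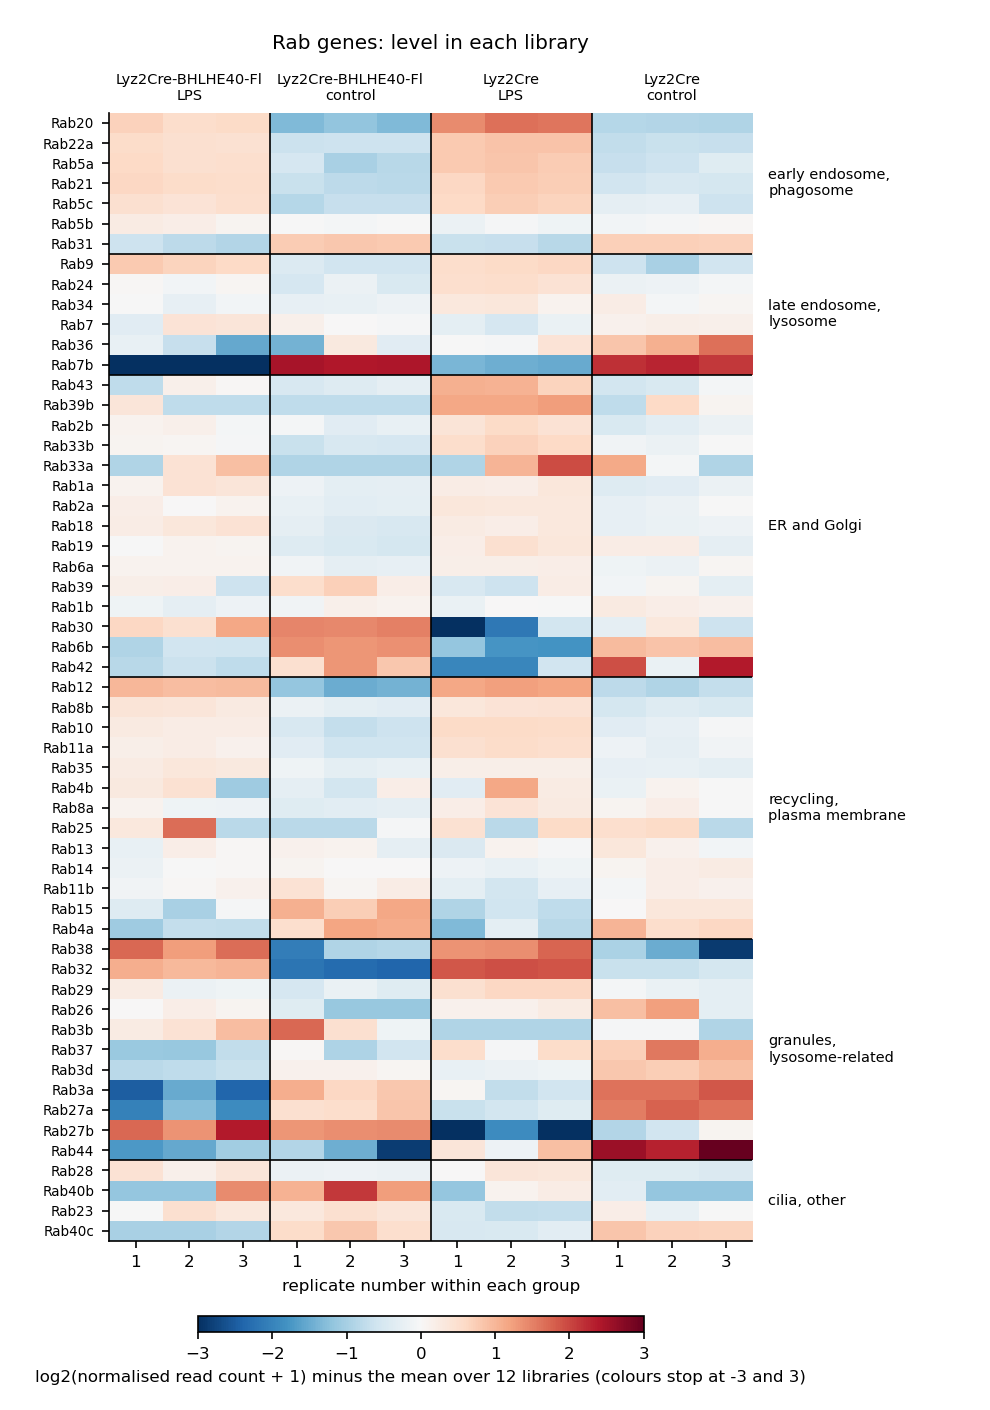
Each row is a Rab gene and each column a library, with the log2(normalised read count + 1) minus its mean over the 12 libraries as colour, in blue below and red above the mean. Rab7b is blue in the LPS libraries and red in controls under both labels, whereas Rab32, Rab38, Rab12 and Rab20 are red with LPS and blue in controls.

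**Figure D2:**
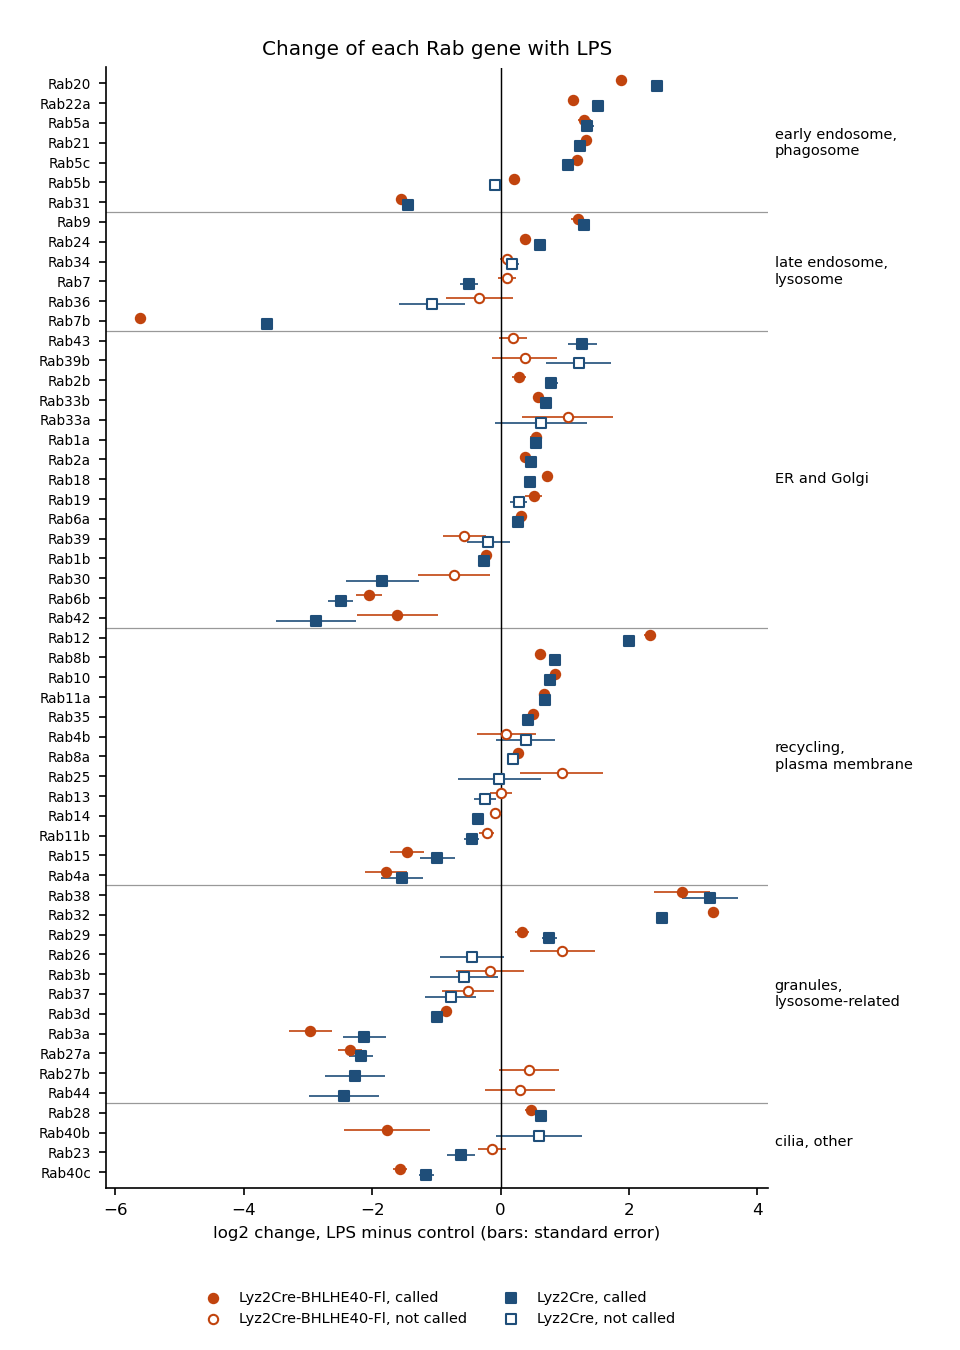
The horizontal axis is the log2 change with LPS on the log2(normalised read count + 1) scale for each of the 56 genes, with circles for Lyz2Cre-BHLHE40-Fl, squares for Lyz2Cre, filled symbols for changes called at an adjusted p under 0.05 and bars for the SE. Rab7b lies far to the left at -5.61 and -3.64, and with equal library totals the changes lie lower, with a median of -0.32 and -0.45 in place of 0.30 and 0.23, so that small rises become falls.

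Most Rab genes of the early endosome and the phagosome rose, and Rab31 fell. Of the 7 measured, 6 rose and 1 fell under Lyz2Cre-BHLHE40-Fl, and 5 rose and 1 fell under Lyz2Cre, with median log2 changes of 1.20 and 1.24. With equal totals 5 rose and 2 fell under each label, and with quantile normalization 5 and 2 under Lyz2Cre-BHLHE40-Fl and 4 and 2 under Lyz2Cre. Their summed level was 33021 to 35097 in Lyz2Cre-BHLHE40-Fl with LPS and 20860.4 to 21098 in its controls. In Lyz2Cre it was 38842 to 42239 with LPS and 22165 to 23711 in controls.

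Rab20, found on phagosomes and endosomes of macrophages, measured 2665, 2392 and 2477 with LPS against 664, 730.3 and 664 in controls labelled Lyz2Cre-BHLHE40-Fl. Under Lyz2Cre it measured 4460.4, 5189 and 5078 with LPS against 919, 908 and 881 in controls. Every LPS library stood above every control, with the Lyz2Cre LPS libraries highest, and Rab20 rose 3.66-fold under Lyz2Cre-BHLHE40-Fl (log2 change 1.87, SE 0.07, adjusted p = 2.92e-13) and 5.44-fold under Lyz2Cre (log2 change 2.44, SE 0.07, adjusted p = 1.22e-14). Without strand information its reads cannot be told apart from those of E230013L22Rik, whose exons overlap 356 of its bases on the other strand.

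Rab21, which directs integrins through early endosomes, measured 5635, 5342 and 5234 with LPS against 2281, 2096 and 2074 in controls labelled Lyz2Cre-BHLHE40-Fl, 2.51-fold higher (log2 change 1.33, SE 0.07, adjusted p = 6.94e-12). In Lyz2Cre libraries the values were 5633, 6257 and 6061 with LPS against 2430.3, 2626 and 2543 in controls (log2 change 1.24, SE 0.07, adjusted p = 2.35e-11). All LPS libraries lay above all controls, and the LPS groups of the 2 labels overlapped. Rab22a, which works between early endosomes and the recycling route, measured 4485, 4284 and 4208 with LPS against 1955, 1993 and 1984 in controls labelled Lyz2Cre-BHLHE40-Fl (log2 change 1.13, SE 0.06, adjusted p = 1.2e-11). Lyz2Cre libraries had 5251, 5510.4 and 5510.4 with LPS against 1844, 1928 and 1895 in controls, 2.87-fold higher (log2 change 1.52, SE 0.06, adjusted p = 2.54e-13). Its closest relative Rab31, which serves traffic between the trans-Golgi network and endosomes, moved the opposite way. Rab31 measured 2651, 2379.7 and 2224 with LPS against 6943, 7184 and 7091 in controls labelled Lyz2Cre-BHLHE40-Fl, a 2.92-fold fall (log2 change -1.55, SE 0.07, adjusted p = 1.47e-12). Under Lyz2Cre it fell 2.7-fold (log2 change -1.43, SE 0.07, adjusted p = 5.89e-12), to 2557, 2541 and 2316 with LPS against 6727, 6688 and 6610.1 in controls.

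The 3 Rab5 genes, which encode near-equivalent regulators of early endosome fusion, differed in their calls, with rises of Rab5a and Rab5c under both labels and of Rab5b under Lyz2Cre-BHLHE40-Fl. Rab5c averaged 13098 ± 439 with LPS and 5721 ± 400.4 in controls labelled Lyz2Cre-BHLHE40-Fl, and 15184 ± 709 with LPS and 7367 ± 985 in Lyz2Cre controls (SD, n = 3 each), log2 changes of 1.20 and 1.05. Rab5a averaged 4154 ± 192 against 1697 ± 292 and, under Lyz2Cre, 4973 ± 153 against 1959.5 ± 230.1, log2 changes of 1.30 and 1.35. All 4 of these changes were called, but under Lyz2Cre the Rab5c change was 0.060 with quantile normalization (adjusted p = 0.622). Rab5b averaged 1977 ± 103 with LPS against 1714 ± 31.8 in controls labelled Lyz2Cre-BHLHE40-Fl, a called log2 change of 0.21 (adjusted p = 0.0162) that turned to -0.41 with equal totals and -0.17 with quantile normalization. The call was lost without Lyz2Cre-BHLHE40-Fl LPS replicate 1 or 2 (adjusted p = 0.0514 and 0.0532). Under Lyz2Cre it averaged 1607 ± 82.9 against 1711 ± 66.1 (log2 change -0.09, adjusted p = 0.296, not called). It shares a stretch of 648 bases at 99.4% identity with Gm13991, and its counts are uncertain to that extent.

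Proteins of the BHLHE40 class bind the E-box, the palindrome CACGTG, so promoters of the members were searched for it. RefSeq promoters, 250 bases before to 50 after the annotated start on GRCm38.p6, matched 45 of the 56 members by symbol. Without a match, and so not searched, were Rab2a, Rab4a, Rab7b, Rab18, Rab26, Rab27b, Rab30, Rab36, Rab37, Rab38 and Rab44. On both strands, CACGTG occurred in 5 of the 45 (11.1%) and in 1957 of 27025 promoters of all genes (7.24%). The 5 promoters hold the 30-base stretches printed here, 5′ to 3′ on the strand of the gene, with the E-box in capitals. They are shown as the letters that the factor named in the genotype label is known to bind.
Rab20, chr8:11478669-11478698, minus strand: cggccgggcaccCACGTGgtcgcagggctg
Rab21, chr10:115315604-115315633, minus strand: gcccaccgcggtCACGTGacgaggggtgtg
Rab5a, chr17:53478987-53479016, plus strand: aattggagaagaCACGTGacgcaaccccac
Rab5a, chr17:53479127-53479156, plus strand: acccggggatgtCACGTGacttcggccccg
Rab24, chr13:55321961-55321990, minus strand: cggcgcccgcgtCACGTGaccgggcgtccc
Rab23, chr1:33719666-33719695, plus strand: cttcagtgctacCACGTGagtctcaggtgg
Counted from the RefSeq start, the E-box begins at base -46 in Rab20, -30 in Rab21, -235 and -95 in Rab5a and -218 in Rab23, and at base 3 in Rab24. Sides depend on the annotation. In GENCODE M21, Rab20 starts at base 11478710 and Rab24 at base 55321946, both on the minus strand. By those starts the Rab20 E-box lies inside the gene and the Rab24 E-box before it. In the same windows, also on both strands, the STAT motif TTCNNNGAA occurred in 4 of 45 (8.89%, against 8.47% of all promoters). The NF-kappaB consensus occurred in 2 (4.44%, against 8.18%), those of Rab11a and Rab28. A match describes letters in a window and shows no binding.

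Late endosomal and lysosomal Rab genes split. Of 6 measured, 2 rose and 1 fell under Lyz2Cre-BHLHE40-Fl, and 2 rose and 2 fell under Lyz2Cre, while with equal totals 1 rose and 4 fell under each label. Their summed level was nonetheless lower with LPS, at 8208.7 to 10408 in Lyz2Cre-BHLHE40-Fl with LPS against 19414 to 20741 in its controls, since Rab7b made up most of the control sum.

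Rab7b (chr1:131688695-131715439, plus strand, mm10, 8 exon blocks in GENCODE M21) had the largest LPS change of all members in both contrasts on the log2(normalised read count + 1) scale. It measured 288, 241 and 260.5 with LPS against 13319, 12509 and 12721 in controls labelled Lyz2Cre-BHLHE40-Fl. The Lyz2Cre values were 917, 866 and 839.9 with LPS against 10874, 11564 and 10379.6 in controls. The 4 groups did not overlap, and the lowest 3 libraries of all were those labelled Lyz2Cre-BHLHE40-Fl with LPS. Rab7b fell 48.9-fold under Lyz2Cre-BHLHE40-Fl (log2 change -5.61, SE 0.07, adjusted p = 1.34e-19) and 12.5-fold under Lyz2Cre (log2 change -3.64, SE 0.07, adjusted p = 6.46e-17).

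Its namesake Rab7, the general Rab of late endosomes and of phagosome fusion with lysosomes, had changes nearer to 0. Rab7 measured 3698, 6293 and 6018 with LPS against 5223, 4712 and 4596 in controls labelled Lyz2Cre-BHLHE40-Fl, and replicate 1 of the LPS group lay below the controls' range while the other 2 lay above it. That change was not called (log2 change 0.10, adjusted p = 0.589), stood at -0.52 with equal totals and -0.62 with quantile normalization, and without this replicate it was 0.35 (adjusted p = 0.0026). Under Lyz2Cre all 3 LPS libraries lay below the controls, at 3817, 3298 and 4103 against 5165, 5319.9 and 5266, a 1.4-fold fall (log2 change -0.50, SE 0.14, adjusted p = 0.00737). Rab7 shares a stretch of 622 bases at 98.4% identity with the pseudogene Rab7-ps1, and its counts are uncertain to that extent. Rab9, which returns mannose 6-phosphate receptors from late endosomes to the Golgi, averaged 2843 ± 189 with LPS against 1238 ± 84.9 in controls labelled Lyz2Cre-BHLHE40-Fl, and 2645 ± 93.8 against 1084 ± 159.7 under Lyz2Cre. It rose 2.3-fold and 2.44-fold, both called. Rab24, linked to autophagy, rose less, with log2 changes of 0.38 under Lyz2Cre-BHLHE40-Fl and 0.62 under Lyz2Cre that turned to -0.23 and -0.11 with equal totals. Its exons overlap Prelid1 on the other strand over 1258 bases.

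Genes of lysosome-related organelles and secretory granules held both the steepest rises and several falls. Of 11 measured, 3 rose and 3 fell under Lyz2Cre-BHLHE40-Fl, and 3 rose and 5 fell under Lyz2Cre (with equal totals 2 rose and 5 fell, and 2 rose and 6 fell). Rab32 (chr10:10545002-10558265, minus strand) measured 10803, 10011 and 10302 with LPS against 1118, 1036 and 975 in controls labelled Lyz2Cre-BHLHE40-Fl. Under Lyz2Cre it measured 18598, 19516 and 18779 with LPS against 3216, 3208 and 3512 in controls. The 4 groups did not overlap, and Rab32 rose 9.94-fold under Lyz2Cre-BHLHE40-Fl (log2 change 3.31, SE 0.07, adjusted p = 2.89e-17) and 5.73-fold under Lyz2Cre (log2 change 2.52, SE 0.07, adjusted p = 1.88e-15). Rab38, which with Rab32 delivers enzymes to melanosomes in pigment cells, rose as well, at lower values. It measured 83.1, 59.8 and 80.1 with LPS against 5.1, 12.6 and 13 in controls labelled Lyz2Cre-BHLHE40-Fl, 7.26-fold higher (log2 change 2.83, SE 0.44, adjusted p = 2.84e-05). In Lyz2Cre libraries the values were 63.9, 66.2 and 84 with LPS against 12.3, 8.1 and 2.5 in controls, 9.35-fold higher (log2 change 3.26, SE 0.44, adjusted p = 5.6e-06). Rab29, the Rab that recruits the kinase LRRK2 to membranes, rose with log2 changes of 0.34 and 0.76, and the first turned to -0.28 with equal totals and lost its call without Lyz2Cre-BHLHE40-Fl LPS replicate 1 or control replicate 1 (adjusted p = 0.103 and 0.0778).

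Rab27a, Rab3a and Rab3d, Rab genes of regulated exocytosis, fell under both labels, whereas Rab26, Rab37 and Rab3b of the same list were called under neither. Rab27a, which docks secretory granules and lysosome-related organelles at the plasma membrane, measured 26.9, 46 and 30.1 with LPS against 158, 164 and 202 in controls labelled Lyz2Cre-BHLHE40-Fl, a 5.08-fold fall (log2 change -2.34, SE 0.19, adjusted p = 7.22e-09). Lyz2Cre libraries had 70.9, 77.2 and 87.1 with LPS against 331, 386 and 353 in controls, a 4.55-fold fall (log2 change -2.17, SE 0.19, adjusted p = 2.1e-08). All 6 LPS libraries lay below all 6 controls. Rab3a, known from synaptic vesicles, measured 3.5, 7.7 and 3.8 with LPS against 52.3, 37.1 and 42.8 in controls labelled Lyz2Cre-BHLHE40-Fl, 8.81-fold lower (log2 change -2.96, SE 0.34, adjusted p = 6.49e-07). The Lyz2Cre values were 25, 13.8 and 15.6 against 75.4, 75.4 and 88.8 in controls (log2 change -2.12, SE 0.34, adjusted p = 3.53e-05). Rab3d, of exocrine and mast cell granules, measured 427, 445 and 473 with LPS against 822, 823 and 789 in controls labelled Lyz2Cre-BHLHE40-Fl, and 643, 668 and 694 against 1328, 1253 and 1402 under Lyz2Cre. Its log2 changes were -0.86 and -0.99, both called.

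Among scarce granule genes, Rab44 and Rab27b fell under Lyz2Cre and were not called under the other label. Rab44, an unusually large Rab described in mast cells and osteoclasts, measured 8.3, 5.5 and 12.4 in Lyz2Cre with LPS against 41.6, 34.9 and 82.1 in controls, 6.05-fold lower (log2 change -2.43, SE 0.54, adjusted p = 0.0011). Under Lyz2Cre-BHLHE40-Fl it stood at 1.2, 1.5 and 2.5 with LPS and 2.9, 1.6 and 0 in controls, from 4 and 6 reads in all, beside a floor of 3 reads worth 2.17 to 4.67 units per library. Rab27b, the close paralog of Rab27a, had 0, 1.4 and 0 in Lyz2Cre with LPS, 1 read in all, against 3.8, 4.9 and 8.4 in controls (21 reads). That is a ratio of 12.2 with an exact counting interval of 1.89 to 486 (log2 change -2.26, SE 0.47, adjusted p = 0.000576).

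Of 13 genes of the recycling route and of traffic to the plasma membrane, 6 rose and 2 fell under Lyz2Cre-BHLHE40-Fl and 5 rose and 4 fell under Lyz2Cre, but with equal totals 2 rose and 6 fell and 1 rose and 7 fell. Rab12, which sends transferrin receptors from recycling endosomes to lysosomes, measured 6136, 5865 and 5947 with LPS against 1367, 1095 and 1146 in controls labelled Lyz2Cre-BHLHE40-Fl, 4.98-fold higher (log2 change 2.32, SE 0.08, adjusted p = 3.01e-14). Under Lyz2Cre it measured 6868, 7230.4 and 7004 with LPS against 1781, 1641 and 1865 in controls, 3.99-fold higher (adjusted p = 3.62e-13). No LPS library overlapped a control. Rab10, which carries TLR4 to the surface of mouse macrophages, and Rab11a, the Rab of recycling endosomes, rose under both labels, with log2 changes of 0.84 and 0.77 for Rab10 and 0.68 and 0.69 for Rab11a. Under Lyz2Cre the Rab10 value was -0.045 with quantile normalization and the Rab11a value -0.038 with equal totals. Rab4a, of the fast recycling route, measured 11.7, 15.3 and 15 with LPS against 37.1, 60 and 57.2 in controls labelled Lyz2Cre-BHLHE40-Fl, 3.67-fold lower (log2 change -1.78, SE 0.33, adjusted p = 0.00016). Under Lyz2Cre it also fell, to 9.7, 20.7 and 14 with LPS against 53.1, 37.3 and 40.2 in controls (log2 change -1.54, SE 0.33, adjusted p = 0.00067). Rab15, described at recycling endosomes of neurons, fell under both labels, with log2 changes of -1.45 and -0.98.

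**Figure D3:**
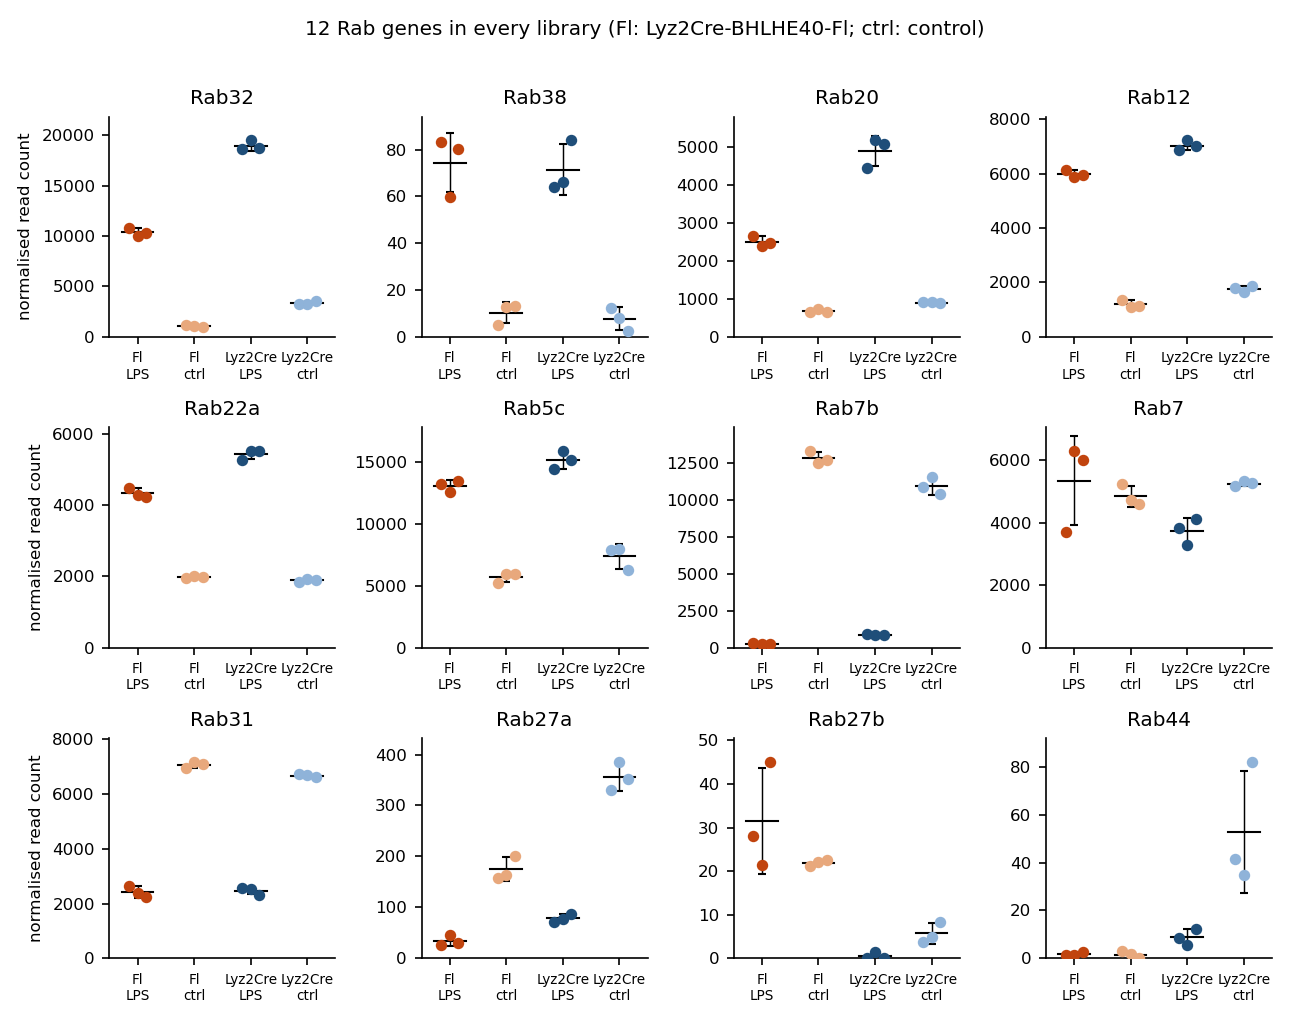
Each panel is a gene, with the normalised read count on a linear axis from 0, points for the 3 libraries of a group, a line for the mean and bars for the SD. The panels show the fall of Rab31 with LPS beside the rise of its relative Rab22a, the fall of Rab7b beside smaller changes of Rab7, and low Rab44 in all 6 libraries labelled Lyz2Cre-BHLHE40-Fl.

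Among 15 genes of the endoplasmic reticulum and the Golgi, 7 rose and 3 fell under Lyz2Cre-BHLHE40-Fl, and 7 rose and 4 fell under Lyz2Cre, but with equal totals 0 rose and 8 fell and 1 rose and 9 fell. The changes of Rab1a, Rab2a and Rab6a, which run traffic through the Golgi, turned negative with equal totals and with quantile normalization under both labels. Rab6b, a close relative of Rab6a known from neurons, fell instead. It measured 38.6, 49.1 and 47.6 with LPS against 193, 184 and 189.9 in controls labelled Lyz2Cre-BHLHE40-Fl, 4.19-fold lower (log2 change -2.05, SE 0.20, adjusted p = 8.87e-08). In Lyz2Cre libraries the values were 32, 20.7 and 20.2 with LPS against 142, 132 and 141 in controls, 5.68-fold lower (log2 change -2.49, SE 0.20, adjusted p = 6.73e-09). Rab42 had 0, 0 and 1.6 in Lyz2Cre with LPS (1 read) against 13.9, 2.4 and 19.3 in controls (44 reads), a ratio of 22.2 with a counting interval of 4.2 to 995 (log2 change -2.88, SE 0.63, adjusted p = 0.000879). Of the 4 remaining genes, Rab28, a Rab of the photoreceptor cilium, rose under both labels and Rab40c, part of a ubiquitin ligase through its SOCS box, fell. Rab40c averaged 123 ± 4.44 with LPS against 366 ± 43.5 in controls labelled Lyz2Cre-BHLHE40-Fl, and 176 ± 11.7 against 394 ± 24.3 under Lyz2Cre (log2 changes -1.56 and -1.16).

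The genotype labels were then compared within each treatment. In controls, 6 members were higher and 17 lower in libraries labelled Lyz2Cre-BHLHE40-Fl, where 31.6% of all genes were called, 15.0% higher and 16.6% lower. With LPS, 8 were higher and 22 lower, where 37.4% of all genes were called, 17.7% higher and 19.8% lower. Differences of at least 2-fold were called in 3 higher and 6 lower members in controls (15.3% of all genes) and in 3 and 7 with LPS (15.5%). Groups did not overlap in 32 members in controls and 35 with LPS, against 41.3% and 45.9% of all genes. The counts with LPS, those of 2-fold differences and of groups apart included, hold Rab3b as higher and Rab39b as lower. The place of both is fixed in part by the filter, as described below. The members' median was -0.15 in controls and -0.18 with LPS, against 0.00 and -0.02 for all genes. With equal library totals, which moved the median of all genes by 0.17 and 0.24, the excess of lower members did not hold, with 17 higher and 12 lower in controls and 16 and 11 with LPS. With quantile normalization 10 were higher and 15 lower in controls and 11 and 16 with LPS. The members' median stayed below that of all genes with equal totals, by 0.14 in controls and 0.15 with LPS.

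Markers of several cell types moved with the genotype label, and their part in these results was not tested. All 12 mesothelial and stromal markers were higher in libraries labelled Lyz2Cre-BHLHE40-Fl under both treatments, with sums of 11796 to 15676 with LPS and 10912 to 14089 in controls, against 3133 to 4595 and 1951 to 2116 under Lyz2Cre. The mesothelial marker Upk3b averaged 444 with LPS and 629 in controls under Lyz2Cre-BHLHE40-Fl, against 0 and 0 under Lyz2Cre. Of 7 macrophage markers, 5 were lower under both treatments, with sums of 80824 to 85341 with LPS and 62402 to 71021 in controls, against 128202 to 133080 and 103425 to 115948 under Lyz2Cre. All 4 tested neutrophil markers of 7 listed were lower, with sums of 347 to 427 with LPS and 334 to 561 in controls, against 15415 to 15574 and 23568 to 27849 under Lyz2Cre, nearly all of it Mmp8. The neutrophil marker Ly6g was at 0 in every library. The macrophage marker Adgre1 averaged 12480.3 with LPS and 5635 in controls under Lyz2Cre-BHLHE40-Fl, against 38486 and 30456 under Lyz2Cre. Of the smaller lists, 7 of 8 T and NK cell markers were lower with LPS and 6 in controls, with sums of at most 89.6, and 2 of 6 B cell markers were lower with LPS and 1 in controls. Of 6 mast cell and eosinophil markers, 2 were lower with LPS, and 1 was lower and 1 higher in controls.

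The same direction was called under both treatments in 14 members. Lower under both were 12 (10.2% of all genes), namely Rab3d, Rab8a, Rab10, Rab11a, Rab12, Rab20, Rab24, Rab27a, Rab32, Rab33b, Rab37 and Rab44, and higher under both were 2 (8.04%), Rab27b and Rab30. Some of these calls depended on the processing. The Rab24 call in controls was lost in 10 alternatives, among them equal totals (adjusted p = 0.583) and the omission of any 1 control library other than Lyz2Cre-BHLHE40-Fl replicate 2 (adjusted p from 0.0564 to 0.156). The Rab12 difference with LPS was 0.053 with equal totals and 0.051 with quantile normalization, and its call was lost without LPS replicate 2 or 3 of either label (adjusted p from 0.0597 to 0.0871). With equal totals the calls with LPS were also lost for Rab8a (adjusted p = 0.664), Rab10 (0.693), Rab11a (0.59) and Rab24 (0.104), and that of Rab11a in controls (0.104). Quantile normalization lost those of Rab8a, Rab10 and Rab11a with LPS. With a pseudocount of 0.1 the calls of Rab44 with LPS and of Rab27b and Rab30 in controls were lost (adjusted p = 0.107, 0.12 and 0.248). Opposite differences were called in 1 (2.05%), Rab7b. In controls, 6 of the 11 granule and lysosome-related members were lower and 1 higher, and with LPS 7 were lower and 2 higher, with median log2 differences of -0.85 and -0.59. One of the latter 2 is Rab3b, whose place is fixed in part by the filter, as described below. Of all genes, 15.0% were higher and 16.6% lower in controls, and 17.7% and 19.8% with LPS. With equal totals 6 granule and lysosome-related members were lower and 1 higher in controls, and 7 and 1 with LPS, with medians of -0.68 and -0.31. Of all 20419 genes, 2526 were then lower and 5099 higher in controls, and 2238 and 6206 with LPS. In controls the other roles had 0 higher and 3 lower of 7 (early endosome), 1 and 2 of 6 (late endosome), 1 and 2 of 15 (endoplasmic reticulum and Golgi), 2 and 4 of 13 (recycling) and 1 and 0 of 4 (cilia and other). With LPS they had 1 and 2, 1 and 3, 2 and 5, 1 and 4 and 1 and 1 in the same order. The lower endoplasmic reticulum and Golgi members with LPS include Rab39b, whose place is also fixed in part by the filter.

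On the log2(normalised read count + 1) scale Rab44 had the lowest difference between the labels under both treatments. In controls it measured 2.9, 1.6 and 0 in libraries labelled Lyz2Cre-BHLHE40-Fl (6 reads) against 41.6, 34.9 and 82.1 under Lyz2Cre (195 reads), 35.2-fold lower (log2 difference -4.54, SE 0.54, adjusted p = 3.12e-06). With LPS it measured 1.2, 1.5 and 2.5 (4 reads) against 8.3, 5.5 and 12.4 (18 reads), 5.04-fold lower (log2 difference -1.80, SE 0.54, adjusted p = 0.0144). The groups did not overlap under either treatment, and the call with LPS was lost without Lyz2Cre LPS replicate 3 (adjusted p = 0.0635). Rab32 was 3.17-fold lower in controls (log2 difference -1.67, SE 0.07, adjusted p = 1.46e-12) and 1.83-fold lower with LPS (log2 difference -0.87, SE 0.07, adjusted p = 1.21e-08), from the values above. Rab27a was 2.04-fold lower in controls (log2 difference -1.03, SE 0.19, adjusted p = 0.00032) and 2.28-fold lower with LPS (log2 difference -1.20, SE 0.19, adjusted p = 6.5e-05). Rab37, of mast cell and other granules, measured 11.6, 5.5 and 7.2 in controls labelled Lyz2Cre-BHLHE40-Fl against 19.2, 35.7 and 25.1 under Lyz2Cre, 3.29-fold lower (log2 difference -1.62, SE 0.40, adjusted p = 0.00451). With LPS it measured 4.7, 4.6 and 6.3 against 16.7, 11 and 17.1, 2.87-fold lower (log2 difference -1.35, SE 0.40, adjusted p = 0.0132). Rab36, a relative of Rab34 on the Golgi and late endosomes, measured 1.5, 7.1 and 4.3 in controls labelled Lyz2Cre-BHLHE40-Fl against 10.8, 13 and 20.1 under Lyz2Cre (log2 difference -1.67, SE 0.52, adjusted p = 0.0195). Rab26, a Rab of secretory granules, had 1 read in controls labelled Lyz2Cre-BHLHE40-Fl against 10 under Lyz2Cre, a ratio of 11.4 with a counting interval of 1.54 to 468 (adjusted p = 0.0306). The Rab36 call was lost without Lyz2Cre-BHLHE40-Fl control replicate 1 or Lyz2Cre control replicate 3 (adjusted p = 0.102 and 0.0803). The Rab26 call was lost without Lyz2Cre-BHLHE40-Fl control replicate 2 or 3 or Lyz2Cre control replicate 1 or 2 (adjusted p from 0.0957 to 0.136). It was also lost with edgeR (adjusted p = 0.052) and with DESeq2 (adjusted p = 0.112). A fit to control libraries only lost it as well (adjusted p = 0.0657). Rab26 overlaps Traf7 on its own strand over 267 bases, so its few reads may include that gene's. The highest Traf7 value was 1864.8.

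On the log2(normalised read count + 1) scale Rab7b had the lowest difference with LPS apart from Rab44. From the library values above, it was 3.32-fold lower in libraries labelled Lyz2Cre-BHLHE40-Fl with LPS (log2 difference -1.73, SE 0.07, adjusted p = 5.54e-12) and 1.17-fold higher in their controls (log2 difference 0.23, SE 0.07, adjusted p = 0.0213). The call in controls was lost without replicate 1 or 3 of either label's controls (adjusted p from 0.0517 to 0.0804). Rab3a was 3.63-fold lower with LPS (log2 difference -1.70, SE 0.34, adjusted p = 0.000593), with all 3 libraries under the Lyz2Cre range. Rab20 was 1.95-fold lower with LPS (log2 difference -0.97, SE 0.07, adjusted p = 1.3e-08) and differed by a log2 of -0.40 in controls (adjusted p = 0.000394). Rab39b, of the Golgi, had 1 read with LPS under Lyz2Cre-BHLHE40-Fl against 6 under Lyz2Cre, a ratio of 7.25 whose counting interval of 0.804 to 305 includes no difference. Without the 3 Lyz2Cre LPS libraries it would not have passed the filter on low values, so its place among the 22 lower genes is fixed in part by the filter, and no p is given.

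Fewer genes were higher. Rab27b measured 28.1, 21.5 and 45.1 with LPS in libraries labelled Lyz2Cre-BHLHE40-Fl (74 reads) against 0, 1.4 and 0 under Lyz2Cre (1 read), a ratio of 67.6 with a counting interval of 11.7 to 2682 (log2 difference 4.54, SE 0.47, adjusted p = 5.83e-07). In controls it measured 21.1, 22.1 and 22.5 against 3.8, 4.9 and 8.4, 3.84-fold higher (log2 difference 1.83, SE 0.47, adjusted p = 0.00582). Rab27a and Rab27b, which share effectors, thus differed in opposite directions between the labels. Rab30, of the Golgi, measured 15.2, 13.8 and 22.5 with LPS under Lyz2Cre-BHLHE40-Fl (40 reads) against 0, 1.4 and 6.2 under Lyz2Cre (5 reads), 6.78-fold higher (log2 difference 2.78, SE 0.56, adjusted p = 0.00072). In controls it measured 28.4, 27.6 and 29 against 7.7, 12.2 and 5.9, 3.29-fold higher (log2 difference 1.66, SE 0.56, adjusted p = 0.0316). Both genes were separate between the labels under both treatments. Rab6b was 1.86-fold higher with LPS (log2 difference 0.89, SE 0.20, adjusted p = 0.00172), and Rab23, which restrains Hedgehog signalling, 1.9-fold higher, at 51.5, 72.1 and 63.9 against 37.5, 30.3 and 31.1 (log2 difference 0.90, SE 0.22, adjusted p = 0.00318). Rab3b stood at 1.2, 1.5 and 2.5 with LPS and was listed at 0 in all 3 libraries under Lyz2Cre. Without those 3 LPS libraries it would not have passed the filter on low values, so its place among the 8 higher genes is fixed in part by the filter, and neither fold nor p is given. In controls, Rab40b had 22 reads under Lyz2Cre-BHLHE40-Fl against 1 under Lyz2Cre, a ratio of 20.8 with a counting interval of 3.29 to 841 (adjusted p = 0.0121). Rab15 measured 85.1, 67.1 and 90.6 in controls labelled Lyz2Cre-BHLHE40-Fl against 40, 51.1 and 51.1 under Lyz2Cre, 1.71-fold higher (log2 difference 0.76, SE 0.27, adjusted p = 0.0403). The control calls of Rab30 and Rab15 were each lost without 5 of the 6 control libraries taken 1 at a time (adjusted p from 0.0678 to 0.0989 and from 0.0569 to 0.14), the exceptions being Lyz2Cre replicate 2 for Rab30 and Lyz2Cre-BHLHE40-Fl replicate 2 for Rab15. The Rab40b call was lost without Lyz2Cre-BHLHE40-Fl control replicate 2 (adjusted p = 0.0579).

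**Figure D4:**
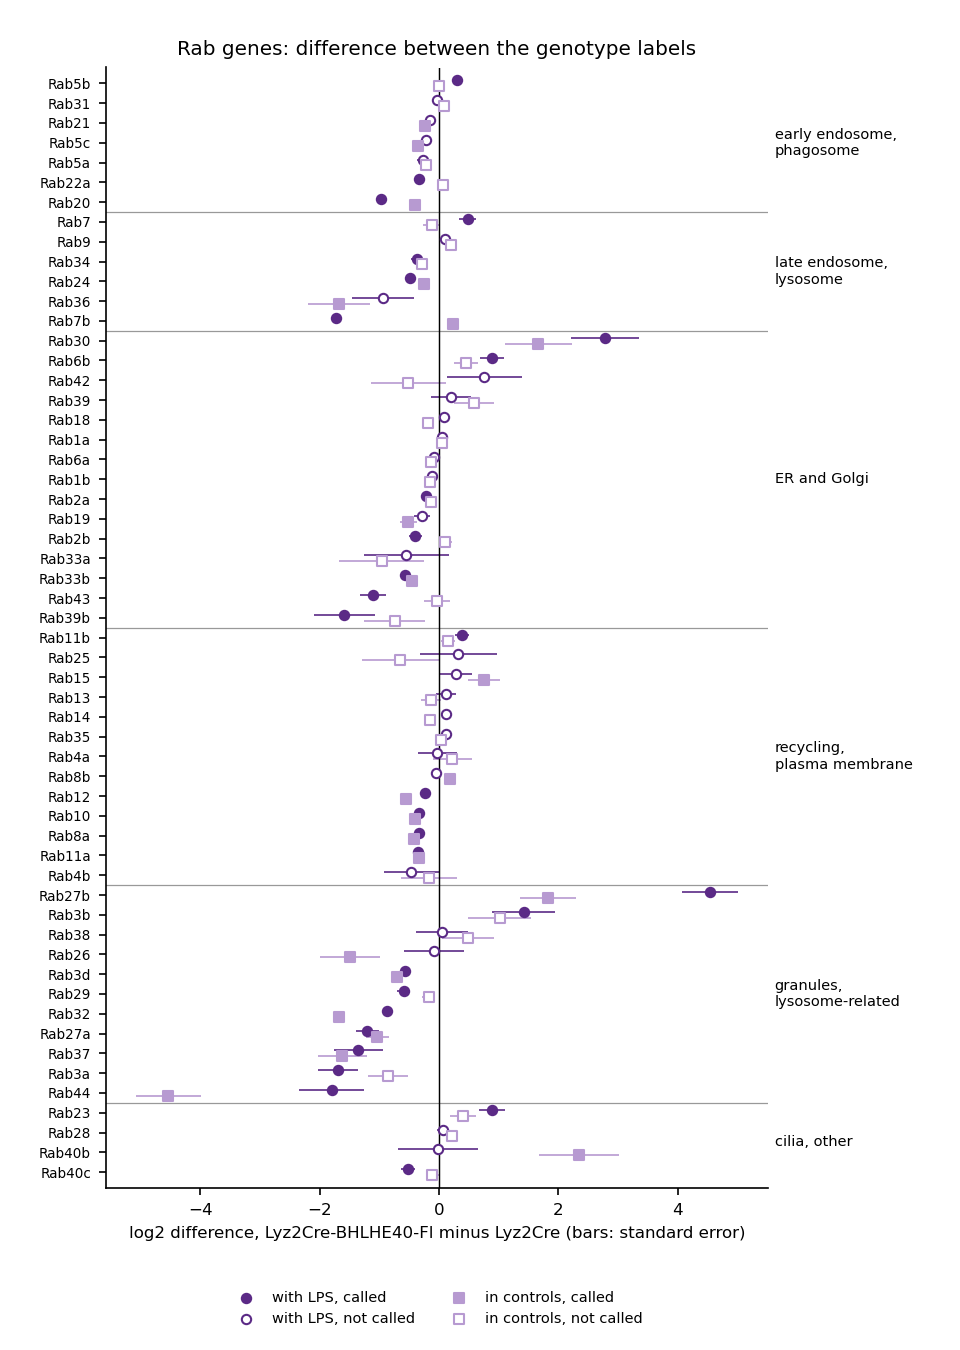
The horizontal axis is the log2 difference of libraries labelled Lyz2Cre-BHLHE40-Fl minus Lyz2Cre on the log2(normalised read count + 1) scale, with dark circles for LPS, light squares for controls, filled symbols for called differences and bars for the SE. Rab44 and Rab7b with LPS lie on the left and Rab27b and Rab30 on the right, and the count of lower genes, 17 in controls and 22 with LPS, turns to 12 and 11 with equal library totals.

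Whether LPS acted differently under the labels was tested as an interaction, the log2 change under Lyz2Cre-BHLHE40-Fl minus that under Lyz2Cre. In 5 members it was higher and in 5 lower, where 18.8% of all genes were called, 9.52% higher and 9.31% lower. Values of at least 2-fold were called in 2 higher and 2 lower members (7.40% of all genes). Lower values were found for Rab7b at -1.97 (SE 0.10, adjusted p = 6.44e-10), Rab43 at -1.08 (adjusted p = 0.0213), Rab20 at -0.57 (adjusted p = 0.000755), Rab2b at -0.50 (adjusted p = 0.0225) and Rab22a at -0.39 (adjusted p = 0.0022). Rab7b, whose fall was deeper under Lyz2Cre-BHLHE40-Fl, is thus unlike the other 4, whose rise was smaller there or was not called. Rab43, a Golgi Rab needed for cross-presentation in mouse dendritic cells, measured 63.2, 121 and 112 with LPS against 77.8, 82.1 and 89.1 in controls labelled Lyz2Cre-BHLHE40-Fl, and under Lyz2Cre 228, 224 and 171 against 73.9, 78.6 and 104. Only the Lyz2Cre change was called (2.43-fold, adjusted p = 9.57e-05), and Rab43 overlaps Gm45140 on its own strand over 4164 bases, so its reads may include that gene's. Rab2b, a Golgi Rab, measured 484, 497 and 431 with LPS against 427, 350.5 and 379.7 in controls labelled Lyz2Cre-BHLHE40-Fl, and 588, 669 and 602 against 323, 358 and 393 under Lyz2Cre, and overlaps Tox4 and Gm43766 on the other strand.

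Higher values were found for Rab44 at 2.74 (SE 0.77, adjusted p = 0.0179), Rab27b at 2.71 (SE 0.67, adjusted p = 0.00754), Rab32 at 0.80 (SE 0.09, adjusted p = 7.64e-06), Rab7 at 0.60 (adjusted p = 0.0464) and Rab5b at 0.30 (adjusted p = 0.0367). Under Lyz2Cre, Rab44 had 18 reads with LPS and 195 in controls, and Rab27b 1 and 21. For Rab32, the ratio to control was larger under Lyz2Cre-BHLHE40-Fl while the level reached was lower there. The calls of Rab7b, Rab20, Rab22a, Rab27b and Rab32 held under every alternative run, whereas those of Rab44, Rab43, Rab2b, Rab5b and Rab7 were each lost under at least 1. Rab43 lost it without Lyz2Cre-BHLHE40-Fl control replicate 3, Lyz2Cre LPS replicate 1 or 2 or Lyz2Cre control replicate 1 (adjusted p from 0.0525 to 0.0575). Rab2b lost it without Lyz2Cre-BHLHE40-Fl LPS replicate 3 or control replicate 1, or without Lyz2Cre LPS replicate 2 or control replicate 1 (adjusted p from 0.0578 to 0.0677). Rab44 lost it without Lyz2Cre control replicate 3 (adjusted p = 0.0511), Rab5b without 8 of the 12 libraries taken 1 at a time (adjusted p from 0.0537 to 0.0938) and Rab7 without 9 of them (adjusted p from 0.0652 to 0.133). The Rab7 value was 0.84 without Lyz2Cre-BHLHE40-Fl LPS replicate 1 and 0.46 without replicate 2 (adjusted p = 4.7e-05 and 0.133).

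The genes of proteins that load, unload and read Rab GTPases were followed in 4 lists, with roles known from human and mouse proteins. Of all tested genes, 24.9% were called higher and 25.6% lower with LPS under Lyz2Cre-BHLHE40-Fl, and 25.0% and 23.9% under Lyz2Cre. Genes of GTPase-activating proteins of Rabs, most of them of the TBC-domain kind, mostly fell with LPS, with 8 higher and 21 lower of 36 under Lyz2Cre-BHLHE40-Fl and 9 higher and 20 lower under Lyz2Cre, medians of -0.49 and -0.46 beside -0.05 and 0 for all genes. With equal totals 29 and 30 fell, and with quantile normalization 24 and 23. Of all 20419 genes, 9556 and 9498 fell with equal totals and 5810 and 5640 with quantile normalization. Tbc1d2, which acts on RAB7, fell by 3.51 and 2.91 on the log2 scale, and Tbc1d16, which acts on RAB4A, by 3.18 and 2.58. Tbc1d13, which acts on RAB35, rose instead, averaging 11765 ± 279.8 with LPS against 2065 ± 148 in controls labelled Lyz2Cre-BHLHE40-Fl (log2 change 2.51, SE 0.07, adjusted p = 4.12e-15). Under Lyz2Cre its log2 change was 2.31 (adjusted p = 2.03e-14).

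Exchange factor genes moved both ways, with 17 higher and 13 lower of 38 under Lyz2Cre-BHLHE40-Fl and 17 higher and 11 lower under Lyz2Cre, a split that turned to 9 and 21 and to 7 and 24 with equal totals. Among the calls over all genes, the share of rises turned with equal totals from 49.3% to 21.5% and from 51.2% to 20.1%. Dennd3, the exchange factor for RAB12, moved in the direction of Rab12 itself. It averaged 3583 ± 397 with LPS against 92.7 ± 12.6 in controls labelled Lyz2Cre-BHLHE40-Fl (log2 change 5.26, SE 0.09, adjusted p = 7.56e-18), and 6911 ± 126 against 495 ± 20.5 under Lyz2Cre (log2 change 3.80, SE 0.09, adjusted p = 8.65e-16). It was lower in controls labelled Lyz2Cre-BHLHE40-Fl (log2 difference -2.41, adjusted p = 1.15e-12). Rab3il1, an exchange factor for RAB3A and RAB8, fell as Rab3a did, to 99.7 ± 2.6 with LPS against 1487 ± 107 in controls labelled Lyz2Cre-BHLHE40-Fl, a log2 change of -3.88 (adjusted p = 2.78e-15). Under Lyz2Cre the log2 change was -4.37 (adjusted p = 9.97e-16). Rab8b was instead called higher under both labels as deposited, a rise not kept with equal totals or quantile normalization. Rab3ip of the same list averaged 909.6 with LPS against 189.3 in controls labelled Lyz2Cre-BHLHE40-Fl, and 971.4 against 230.1 under Lyz2Cre. Whether a regulator or effector moves with its Rab was not tested in any list.

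Of 44 tested effector genes, 10 rose and 19 fell under Lyz2Cre-BHLHE40-Fl and 11 rose and 14 fell under Lyz2Cre (6 and 28, and 6 and 26, with equal totals). Rab11fip1, which binds RAB11, rose (log2 change 3.31 and 2.21), while Appl2, which binds RAB5 and RAB31, fell by 3.01 under Lyz2Cre-BHLHE40-Fl. Mlph, the RAB27A effector melanophilin, fell by 2.98 and 2.58, in the direction of Rab27a. Between the labels with LPS, 6 effectors were higher and 17 lower, but 14 and 10 with equal totals. Lrrk2, the kinase that phosphorylates several Rab proteins and binds RAB29, averaged 3614 ± 269 with LPS in libraries labelled Lyz2Cre-BHLHE40-Fl against 23416 ± 430.5 under Lyz2Cre (log2 difference -2.70, SE 0.07, adjusted p = 9.17e-15). Myo5b, the myosin that RAB11 recruits, was higher under Lyz2Cre-BHLHE40-Fl, by 4.36 in controls and 3.38 with LPS. The mesothelial markers were higher there too, and their part in the Myo5b difference was not tested. Of 8 genes for prenylation and GDI proteins, 0 rose and 3 fell under Lyz2Cre-BHLHE40-Fl and 2 rose and 3 fell under Lyz2Cre, and all 8 fell under each label with equal totals. That scaling gave falls in 9556 and 9498 of all 20419 genes. Chml, the Rab escort protein that presents new Rab proteins for prenylation, fell by 1.17 and 1.04. Between the labels in controls, the exchange factors had 9 higher and 8 lower, the GTPase-activating proteins 4 and 7, the effectors 9 and 10 and the prenylation genes 2 and 2. With equal totals these were 18 and 6, 16 and 3, 19 and 9 and 4 and 1. With LPS the exchange factors had 11 higher and 10 lower, the GTPase-activating proteins 5 and 9 and the prenylation genes 0 and 2, and with equal totals 21 and 5, 17 and 4 and 4 and 1. Over all 20419 genes, 15.0% were higher and 16.6% lower in controls, and 17.7% and 19.8% with LPS. With equal totals 5099 of all genes were higher and 2526 lower in controls, and 6206 and 2238 with LPS.

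**Figure D5:**
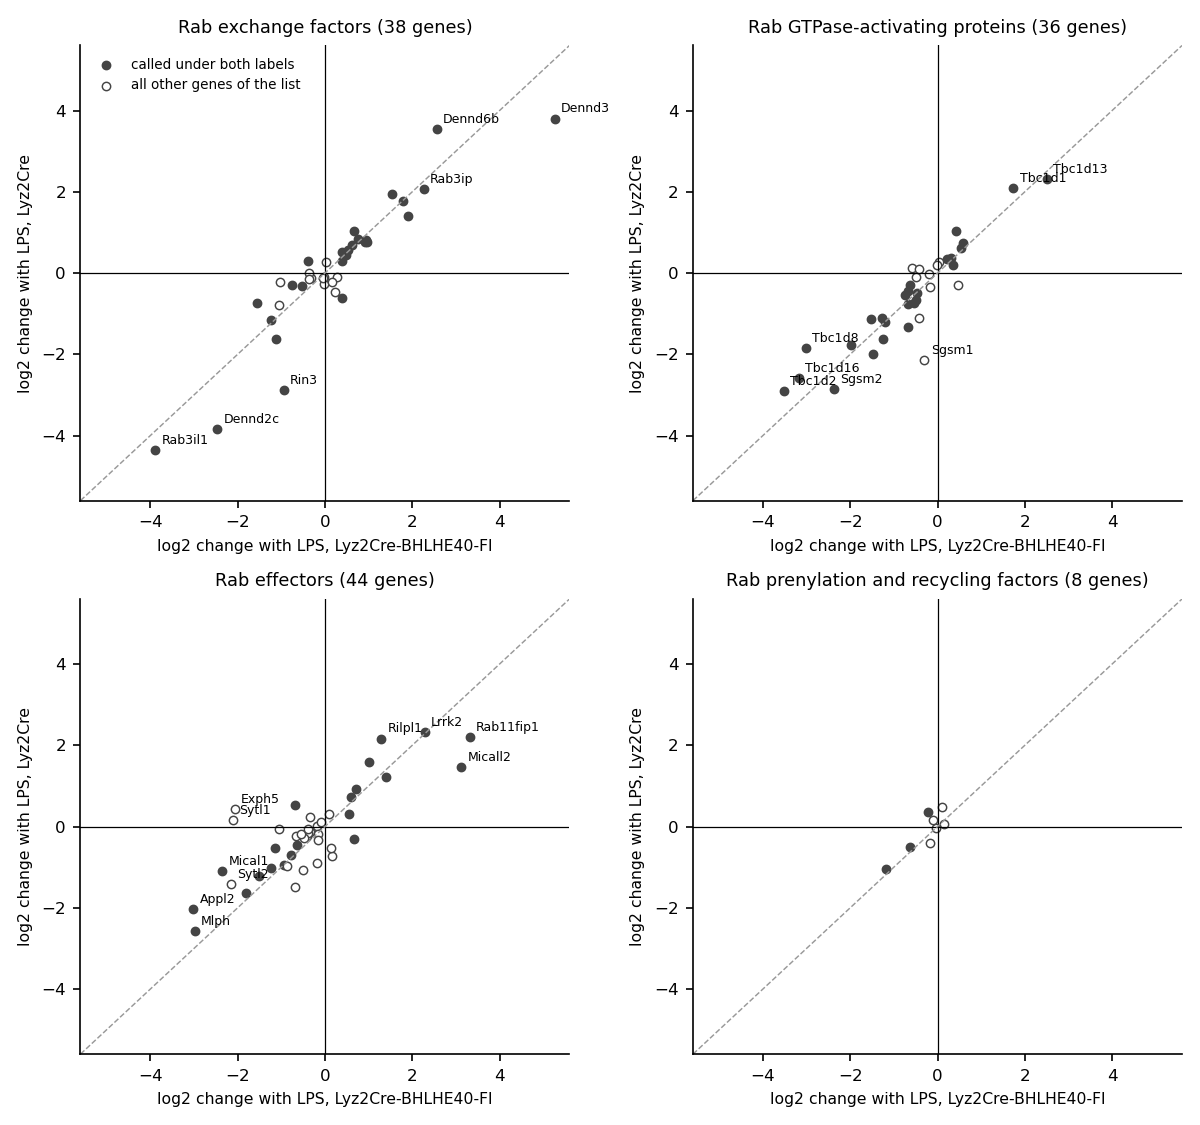
Each panel is a list of regulators, with the log2 change with LPS under Lyz2Cre-BHLHE40-Fl on the horizontal axis, that under Lyz2Cre on the vertical axis, a dashed line where both are equal and names for genes changed by more than 2. Most GTPase-activating proteins lie in the lower left, with 21 and 20 of 36 called lower, and Dennd3 stands at the upper right of the exchange factors. With equal library totals the changes lie lower, the median of the GTPase-activating proteins being -1.11 on the horizontal and -1.19 on the vertical axis. The median of all genes is then -0.56 and -0.58.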

How the data were processed

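RNA of 12 libraries was sequenced on Illumina instruments after column isolation, per the labels' protocols. The submitters' processing notes name mm10, STAR, Cufflinks and Cuffdiff, with no role, order or version. No strand setting, read counter or annotation is given in the sources used here. The values are a signal as deposited, whole reads divided by 1 factor per library, which was read from the values themselves (tolerance 0.06 for rounding). The test had been planned for another normalised unit, and its log-scale form was kept.

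The Rab genes, the lists and the tests were chosen with earlier results of these data known. Genes with at least 1 in 3 libraries were tested (20419). A limma 3.58.1 trend model in R 4.3.3, with 1 mean per group over all 12 libraries, was fitted to log2(value + 1), which understates changes of low genes. Adjusted p-values are Benjamini-Hochberg values over all tested genes, called below 0.05 with no minimum change. Folds are ratios of group means. Against 1 to 3 reads a ratio carries an exact 95% interval, which covers counting error only. Any member may be named. Library values are given for up to 5 called members without overlap per direction and contrast and for up to 8 called in the interaction, and regulators are named for up to 4 genes per list and contrast.

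Reads per library set the precision at low values, and 3 reads were worth 2.17 to 4.67 units. Replicates differed by more than sampling noise (chi-square per degree of freedom 7.354 to 72.16), so none was merged. Gene annotation came from GENCODE M21, promoters from RefSeq, and shared stretches from BLAST 2.17.0+. The alternatives tried were other pseudocounts (0.1, 5) and filters (none, at least 5), median-of-ratios, equal-total and quantile scaling, the compared groups alone, the replicate block, edgeR 4.0.16 (quasi-likelihood) and DESeq2 1.42.0 on recovered reads, and each library left out.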

Additional observations from a re-analysis of the deposited data

Results flagged for a closer look

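The LPS response differed between the genotype labels in 10 Rab genes, by the interaction term of the limma model over all 12 libraries (adjusted p under 0.05). That is 17.9% of the 56 members, beside 18.8% of all tested genes. Each value is the log2 change with LPS under Lyz2Cre-BHLHE40-Fl minus that under Lyz2Cre, and the range of adjusted p-values is over the 22 alternatives run for each gene.

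Rab7b had -1.97 (adjusted p = 6.44e-10), with a deeper fall under Lyz2Cre-BHLHE40-Fl. Rab20 had -0.57 (adjusted p = 0.000755) and Rab22a -0.39 (adjusted p = 0.0022), with smaller rises under Lyz2Cre-BHLHE40-Fl. Rab32 had 0.80 (adjusted p = 7.64e-06), with the larger rise under Lyz2Cre-BHLHE40-Fl. Rab27b had 2.71 (adjusted p = 0.00754) at 1 to 88 reads per group. All 5 of these kept the call in every alternative.

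The call was lost in some alternatives for the other 5. Rab43 had -1.08 and kept it in 18 of 22 (adjusted p from 0.00618 to 0.0575). Rab2b had -0.50 and kept it in 17 (0.011 to 0.0677). Rab44 had 2.74 and kept it in 18 (0.00184 to 0.144). Rab5b had 0.30 and kept it in 11 (0.0038 to 0.107). Rab7 had 0.60 and kept it in 9 (4.7e-05 to 0.133). Its Lyz2Cre-BHLHE40-Fl LPS replicate 1, at 3698, lay apart from replicates 2 and 3 but within the range of Lyz2Cre with LPS, 3298 to 4103. The mitochondrial share was 0.756% in replicate 1, 1.92% and 1.89% in replicates 2 and 3, and 0.486% to 0.600% in Lyz2Cre with LPS. A link between this share and Rab7 was not tested. Macrophage, mesothelial and neutrophil markers differed between the labels too, and their part in these differences was not tested. The neutrophil marker sums were nearly all Mmp8.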

How the results depend on the processing

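Among the called Rab genes, 18 of 37 kept call and direction in every alternative for LPS under Lyz2Cre-BHLHE40-Fl, 23 of 41 under Lyz2Cre, 10 of 23 between the labels in controls, 15 of 30 with LPS and 5 of 10 in the interaction. Equal library totals changed most. They gave 10 higher and 28 lower members for LPS under Lyz2Cre-BHLHE40-Fl, 10 and 30 under Lyz2Cre, 17 higher between the labels in controls, 16 and 11 with LPS and 8 higher (4 lower) in the interaction. Quantile normalization gave 15 higher for LPS under Lyz2Cre-BHLHE40-Fl and 10 higher in controls. Over all genes, the share of calls that were higher moved with equal totals to 21.5% for LPS under Lyz2Cre-BHLHE40-Fl, 20.1% under Lyz2Cre, 66.9% in controls, 73.5% with LPS and 64.1% in the interaction, against 49.3%, 51.2%, 47.5%, 47.2% and 50.5% as deposited. No filter gave 3 higher in controls and 3 in the interaction, and a pseudocount of 0.1 gave 3 in the interaction. The cause was not tested.

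Directions turned as follows. With equal totals, LPS under Lyz2Cre-BHLHE40-Fl gave Rab13 -0.60, Rab19 -0.10, Rab1a -0.070, Rab24 -0.23, Rab28 -0.14, Rab29 -0.28, Rab2a -0.23, Rab2b -0.33, Rab33b -0.028, Rab34 -0.52, Rab35 -0.11, Rab5b -0.41, Rab6a -0.31, Rab7 -0.52, Rab8a -0.34 and Rab8b -0.0060. Under Lyz2Cre it gave Rab11a -0.038, Rab18 -0.27, Rab19 -0.44, Rab1a -0.17, Rab24 -0.11, Rab28 -0.10, Rab2a -0.26, Rab33b -0.026, Rab34 -0.55, Rab35 -0.29, Rab6a -0.46 and Rab8a -0.53. Between the labels with LPS it gave Rab12 0.053, Rab2a 0.063, Rab31 0.25, Rab6a 0.21 and Rab8b 0.24. With quantile normalization, LPS under Lyz2Cre-BHLHE40-Fl gave Rab1a -0.26, Rab2a -0.10, Rab5b -0.17, Rab6a -0.16, Rab7 -0.62, Rab8a -0.17 and Rab8b -0.37. Under Lyz2Cre it gave Rab10 -0.045, Rab1a -0.26, Rab2a -0.039, Rab6a -0.21, Rab8a -0.31 and Rab8b -0.20, and between the labels with LPS Rab12 0.051 and Rab8b 0.24.

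Leaving out 1 library gave 2 to 5 higher members between the labels in controls (2 without Lyz2Cre control replicate 1 or Lyz2Cre-BHLHE40-Fl control replicate 1) and 5 to 7 with LPS (5 without Lyz2Cre LPS replicate 2 or Lyz2Cre-BHLHE40-Fl LPS replicate 3). In the interaction it gave 2 to 7 higher (2 without Lyz2Cre control replicate 3) and 3 to 6 lower (3 without Lyz2Cre LPS replicate 2 or Lyz2Cre control replicate 1). With the replicate number as a block, the interaction had 3 higher members, the call of Rab24 in controls was among those lost (adjusted p = 0.0573), and the pairing of same-numbered libraries was not borne out, with correlations of their deviations from -0.0664 to 0.0277. At 20489417 to 29354869 reads per library, genes of a few reads such as Rab3b, Rab26, Rab39b and Rab40b carry wide counting intervals.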
